A study of Rattus norvegicus with 4 samples.

Results

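The transcripts described here are those of 8 nuclear receptors in rat soleus, the slow postural muscle of the lower hindlimb: the thyroid hormone receptors Thra and Thrb, the glucocorticoid receptor Nr3c1, the mineralocorticoid receptor Nr3c2, the retinoid X receptors Rxra and Rxrb, the retinoic acid receptor Rara and the vitamin D receptor Vdr. They were taken by gene symbol alone, as every probe set annotated to 1 of these genes, which gave 15 of the 8799 probe sets in the table, for 8 of the 4736 genes it names by a single symbol. A probe set is a group of short probes on an Affymetrix array that together read 1 transcript. All rats were female. Unloaded rats (2 pools) could not stand on their hindlimbs during 10 h of every day for 11 days, and control rats (2 pools) moved freely in their cages through the same 11 days. Total RNA from the soleus of 4 to 5 rats was combined into each pool, and each array holds 1 pool, so the spread between replicates, on which every p-value rests, is that of pools and not of single animals. The labels give neither strain nor age. Hindlimbs were unloaded for part of each day only, so the model is one of intermittent and not of continuous inactivity.

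Nuclear receptors are transcription factors that a small fat-soluble ligand switches on. Thyroid hormone, retinoic acid and vitamin D receptors sit on DNA as heterodimers with a retinoid X receptor, whereas glucocorticoid and mineralocorticoid receptors wait in the cytoplasm on heat shock chaperones and bind DNA as dimers once they hold steroid. In skeletal muscle, thyroid hormone favours fast over slow contractile isoforms and raises energy use, and glucocorticoids restrain protein synthesis and drive protein breakdown. A receptor's mRNA sets how much receptor can be made, not whether its ligand is present.

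None of the 8 receptors passed the test between unloaded and control soleus. All 8 were measured, with 11 probe sets bright enough to be tested (mean MAS5 signal of at least 21.1) and 4 that were too dim. Of the 11, 0 passed limma at a Benjamini-Hochberg adjusted p under 0.05, against 5.34% of the 5248 probe sets tested (2.61% higher, 2.72% lower), and 0 had an unadjusted p under 0.05, against 20.8%. With so few probe sets, a count of 0 does not set the receptors apart from the table as a whole. The differences were small: log2 fold changes, unloaded minus control on the log2(signal + 9) scale, ran from -0.37 to 0.37, with 3 above and 8 below 0. Their median size was 0.14, against 0.17 over all tested probe sets. The median signed value was -0.09, against 0.00 over all tested probe sets. Adjusted p ran from 0.271 to 0.979. In whole muscle, fewer cells of a type and less RNA per cell cannot be told apart.

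**Figure D1:**
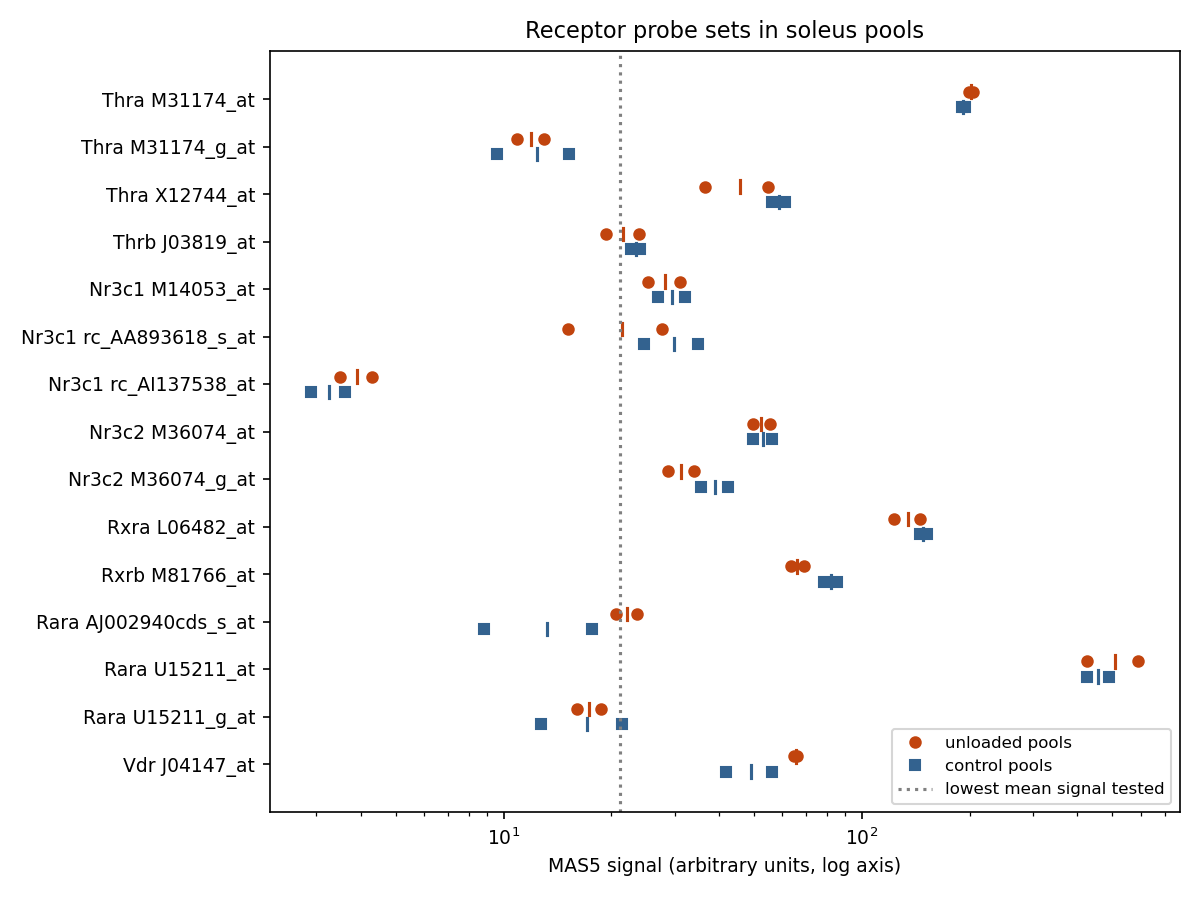
MAS5 signal on a log axis of the 15 receptor probe sets (rows) in the 2 unloaded pools (circles) and the 2 control pools (squares), with short bars at group means. Most rows overlap or lie close together, and 4 rows have means left of the dotted line at 21.1, the lowest mean signal tested.

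The arrays shared a common scale. The lowest and highest trimmed mean signal (2% off each end) were 150.2 and 150.3. All 9 tested markers of slow soleus muscle were in the top 10% of probe sets by signal, and their summed signal was 55532 and 61311 in the unloaded pools, against 59650 and 58799 in the control pools. No marker gene of adipocytes (4 tested), endothelium (4), smooth muscle (5), leukocytes (4), blood (4), Schwann cells (3) or fibroblasts (7) passed on its brightest probe set, and none was at 0. Dimmer probe sets of the smooth muscle actin Acta2 (X06801cds_i_at, 0.82, adjusted p = 0.0212) and of the matrix proteoglycan Dcn (X59859_r_at, 0.87, adjusted p = 0.00513) were higher in the unloaded pools. All 5 listed smooth muscle markers had values above 0, up to 0.56 with a median of 0.22. The lowest, 0.00, was that of Des, which was also the brightest of them (mean signal 4160). So did all 4 blood markers, from 0.06 to 0.38 with a median of 0.15. Adipocyte markers ran from -0.61 to 0.31, endothelium markers from -0.63 to 0.02 and Schwann cell markers from -0.17 to 0.18. Fibroblast markers summed to 10642 and 8590 in the unloaded pools, against 7866 and 8944 in the control pools. Leukocyte markers summed to 591 and 496 in the unloaded pools, against 424 and 642 in the control pools, and the leukocyte antigen Ptprc was too dim to be tested. The part of these cell types in the receptor values was not tested.

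Thra encodes the thyroid hormone receptor that predominates in skeletal muscle. Its brightest probe set, M31174_at, read 204.6 and 199.5 in the unloaded pools, against 193.8 and 189.9 in the control pools. Both unloaded pools lay above both control pools, by a narrow margin (log2 fold change 0.07, SE 0.11, adjusted p = 0.778 by limma). The 95% interval ran from -0.18 to 0.32, the narrowest among the 11. A second Thra probe set, X12744_at, leaned the other way, with 36.5 and 54.7 in the unloaded pools, against 56.0 and 61.1 in the control pools. Its groups did not overlap either, but unloaded pool 2 came close to control pool 1, and the difference did not pass (-0.33, SE 0.20, adjusted p = 0.393). Without unloaded pool 1 that value was -0.08 and without unloaded pool 2 it was -0.57. The remaining one, M31174_g_at, averaged 11.95 ± 1.48 in unloaded and 12.4 ± 3.96 in control pools (SD, n = 2 each) and was too dim to be tested. The annotation does not say which Thra splice forms these probe sets read.

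Thrb, the second thyroid hormone receptor gene, stood just above the lowest signal tested. J03819_at read 23.8 and 19.3 in the unloaded pools, against 22.7 and 24.0 in the control pools. The groups overlapped (log2 fold change -0.09, SE 0.20, adjusted p = 0.867), and the 95% interval from -0.56 to 0.39 left room for changes of either sign.

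Thra overlaps another receptor gene, Nr1d1, which encodes the heme-binding repressor REV-ERB alpha of the circadian clock. In RefSeq's annotation of assembly GRCr8 the spans of both genes overlap, with Thra on the plus and Nr1d1 on the minus strand. Nr1d1 rose where Thra did not pass. Its probe set M25804_g_at read 344.1 and 380.1 in the unloaded pools, against 191.8 and 230.1 in the control pools (0.76, SE 0.12, adjusted p = 0.0136). M25804_at read 256.1 and 269.1 in the unloaded pools, against 181.0 and 180.1 in the control pools (0.52, SE 0.11, adjusted p = 0.0329). On both probe sets the 2 unloaded pools lay above the 2 control pools. The call on M25804_g_at was lost with 3 arrays, without unloaded pool 1 (0.83, adjusted p = 0.103), unloaded pool 2 (0.69, adjusted p = 0.133) or control pool 1 (0.63, adjusted p = 0.0942), and also without the filter on dim probe sets (adjusted p = 0.0605) or the mean-variance trend (adjusted p = 0.0633), in a range of 0.00418 to 0.133 over 12 alternatives. Whether the changes of the 2 genes differ from each other was not tested, nor was whether any of these probe sets reads the shared stretch. The labels do not give the time of day at which tissue was taken.

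**Figure D2:**
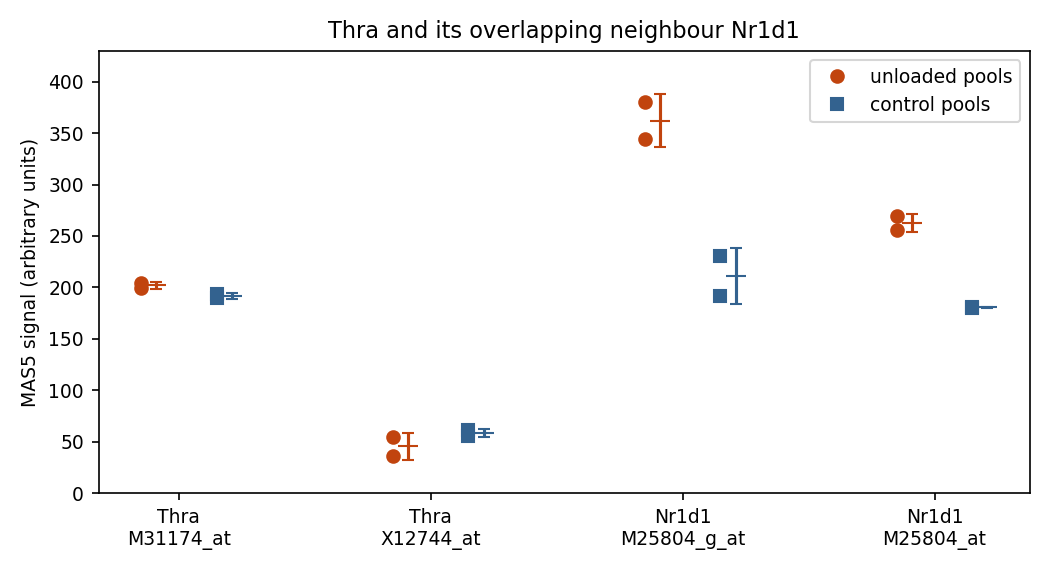
MAS5 signal of the 2 tested Thra and the 2 Nr1d1 probe sets, with points for single pools, unloaded (circles) left of control (squares), and bars for mean and SD (n = 2 pools). For Nr1d1 the unloaded pools sit between 256.1 and 380.1, above the control pools of the same probe set, while the Thra groups lie close together.

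Nr3c1 encodes the glucocorticoid receptor. M14053_at read 31.1 and 25.3 in the unloaded pools, against 32.1 and 26.9 in the control pools, so that the groups overlapped almost fully (log2 fold change -0.05, SE 0.20, adjusted p = 0.926). The expressed-sequence probe set rc_AA893618_s_at was the least even of the 11. It read 15.1 and 27.6 in the unloaded pools, against 34.9 and 24.7 in the control pools. Unloaded pool 2 lay inside the control range and unloaded pool 1 well below it (-0.37, SE 0.26, adjusted p = 0.479). Its 95% interval, from -0.98 to 0.23, was the widest among the 11. The value was -0.07 without unloaded pool 1 and -0.67 without unloaded pool 2, and -0.18 without control pool 1 and -0.56 without control pool 2. Another probe set, rc_AI137538_at, averaged 3.90 ± 0.566 in unloaded and 3.25 ± 0.495 in control pools (SD, n = 2 each), too dim to be tested.

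Nr3c2, the mineralocorticoid receptor, binds aldosterone and also cortisol and corticosterone. Its probe set M36074_at was the closest to no difference, with 55.3 and 49.6 in the unloaded pools, against 56.2 and 49.7 in the control pools (log2 fold change -0.01, SE 0.16, adjusted p = 0.979). The interval ran from -0.38 to 0.35. M36074_g_at, from the same sequence entry, read 28.7 and 33.9 in the unloaded pools, against 42.3 and 35.5 in the control pools. There the groups did not overlap, with unloaded pool 2 and control pool 2 next to each other (-0.25, SE 0.18, adjusted p = 0.507).

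The retinoid X receptors are the shared partners of the thyroid hormone, retinoic acid and vitamin D receptors. Rxra (L06482_at) read 123.0 and 145.3 in the unloaded pools, against 152.0 and 145.3 in the control pools. One pool of each group had the same signal, and the difference did not pass (log2 fold change -0.14, SE 0.13, adjusted p = 0.601). Without unloaded pool 1 the value was -0.03 and without unloaded pool 2 it was -0.26. Rxrb (M81766_at) read 68.8 and 63.3 in the unloaded pools, against 78.2 and 85.4 in the control pools. Here both unloaded pools lay below both control pools, with 66.05 ± 3.89 in unloaded and 81.8 ± 5.09 in control soleus (SD, n = 2 each). That is a log2 fold change of -0.27 (SE 0.14, unadjusted p = 0.0882, adjusted p = 0.315 by limma). Rxrb kept a value between -0.33 and -0.21 in 12 alternatives and passed in none of them.

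Rxrg, the retinoid X receptor most restricted to muscle and brain, was read by 3 further probe sets. The brightest, AF016387_g_at, read 273.7 and 304.8 in the unloaded pools, against 279.5 and 326.4 in the control pools, with overlapping groups (-0.06, SE 0.12, adjusted p = 0.830). AF016387_at read 35.4 and 42.8 in the unloaded pools, against 61.7 and 50.9 in the control pools. There both unloaded pools lay below both control pools (-0.44, SE 0.18, unadjusted p = 0.0369, adjusted p = 0.206 by limma). AJ223083_at gave -0.09 (SE 0.24, adjusted p = 0.881).

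Rara, a retinoic acid receptor, was read by 1 bright and 2 dim probe sets. U15211_at read 426.0 and 591.8 in the unloaded pools, against 488.7 and 426.4 in the control pools. The 2 unloaded pools lay on either side of the control pools (log2 fold change 0.14, SE 0.16, adjusted p = 0.698), and without unloaded pool 2 the value was -0.10. The dim U15211_g_at averaged 17.35 ± 1.91 in unloaded and 17.05 ± 6.15 in control pools. AJ002940cds_s_at read 20.6 and 23.6 in the unloaded pools, against 8.80 and 17.7 in the control pools. These groups did not overlap, but the mean fell short of the signal needed for a test, and in the fit without that filter it gave 0.51 (SE 0.25, adjusted p = 0.446). Rarb was too dim to be tested, with 8.70 ± 1.84 in unloaded and 11.45 ± 4.45 in control pools.

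Vdr, the vitamin D receptor, had the largest positive value and the smallest p of the 11. J04147_at read 66.0 and 64.8 in the unloaded pools, against 41.7 and 56.1 in the control pools. Both unloaded pools lay above both control pools, and the control pools differed from each other more than the unloaded pools did. The log2 fold change was 0.37 (SE 0.17, 95% interval -0.03 to 0.77, unadjusted p = 0.0631, adjusted p = 0.271 by limma). Leaving out control pool 1 gave 0.19 and leaving out control pool 2 gave 0.55, so the size turned on which control pool was kept. The 3 probe sets of other genes nearest to it over the 4 arrays, by Euclidean distance between centred log2 values, were those of Inpp4a (distance 0.05), Cntn2 (0.06) and Rab11a (0.06), and none of these passed (adjusted p = 0.234 to 0.340).

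**Figure D3:**
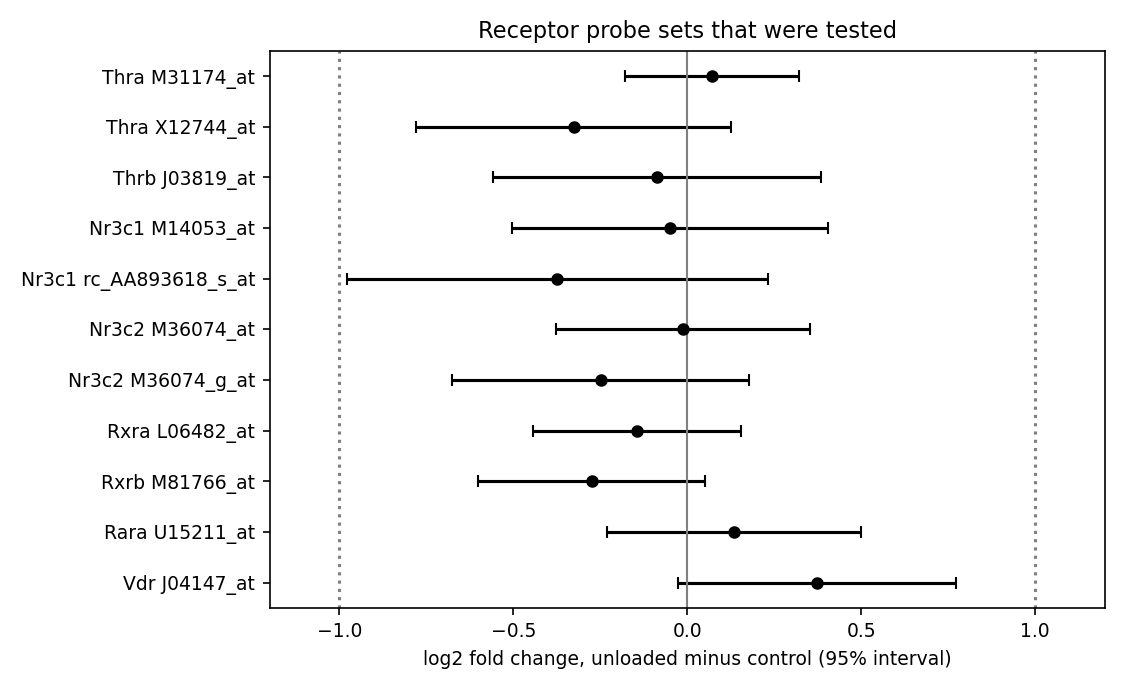
Log2 fold change, unloaded minus control, with 95% interval from limma for the 11 tested receptor probe sets, with a solid line at 0 and dotted lines at 2-fold in either direction. Every interval includes 0 and none reaches a dotted line, the nearest being rc_AA893618_s_at of Nr3c1 at -0.98.

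Each of these 95% intervals is for 1 probe set on the log2(signal + 9) scale, and the 4 probe sets too dim to be tested have none. On that scale all 11 intervals lay within 2-fold in either direction, and 6 within 1.5-fold. With an offset of 1 in place of 9, which damps dim signals less, 10 of 11 lay within 2-fold, and that of the Nr3c1 probe set rc_AA893618_s_at reached -1.32. The standard errors of the receptors (median 0.17) were close to those of all tested probe sets (median 0.15). Unloaded and control pools did not overlap for 5 of the 11, with 2 higher and 3 lower, against 50.8% of all tested probe sets (25.5% higher, 25.3% lower). Where a gene had 2 tested probe sets (Thra, Nr3c1 and Nr3c2), their values differed, at 0.07 and -0.33 for Thra, -0.05 and -0.37 for Nr3c1 and -0.01 and -0.25 for Nr3c2, and whether they differ beyond error was not tested.

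Other members of the nuclear receptor family were read on the same arrays. This list and those below were drawn up with earlier results of these data known. Their shares called therefore describe the lists and do not test them against all genes. Of 40 listed, 27 had a probe set and 17 were tested, of which 1 rose, 3 fell and 13 did not pass. That is 23.5% called, against 4.77% of 3145 genes by their brightest probe set (2.54% higher, 2.23% lower), with a list median of 0.02 and 0.01 over all genes. The 3 that fell were the orphan receptors Nr4a1 (-2.67), Nr4a3 (-2.82) and Nr4a2 (-0.96), products of early response genes, and the one that rose was Nr1d1. Among those that did not pass, Nr2f2 gave 0.66 (SE 0.24, adjusted p = 0.166) and the fatty acid receptor Ppara -0.51 (SE 0.19, adjusted p = 0.176). Whether these receptors differ from the 8 described above in how much they changed was not tested. The count of 4 was 2 when unloaded pool 2, control pool 1 or control pool 2 was left out.

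Enzymes and carriers that supply the ligands were followed next. Of 36 listed, 22 had a probe set and 11 were tested, of which 1 rose, 9.09% called against 4.77% of all genes, with a median of 0.08. It was Cyp27a1, a mitochondrial hydroxylase that acts on sterols and vitamin D (0.91, SE 0.11, adjusted p = 0.00438), which was not called without unloaded pool 1 (adjusted p = 0.0657) or unloaded pool 2 (adjusted p = 0.0610). A dimmer Cyp27a1 probe set, Y07534cds_s_at, read 237.1 and 203.4 in the unloaded pools, against 36.5 and 36.9 in the control pools, and rose as well (2.32, SE 0.14, adjusted p = 1.2e-04). Hsd11b1, which regenerates active glucocorticoid inside cells, read 192.5 and 230.2 in the unloaded pools, against 215.4 and 180.9 in the control pools, with overlapping groups (0.09, SE 0.14, adjusted p = 0.784). Dio2, which makes active thyroid hormone, was too dim to be tested, at 5.60 and 4.90 in the unloaded pools, against 9.10 and 7.20 in the control pools. Dio3, which inactivates it, gave -0.22 (SE 0.15, adjusted p = 0.462). Aldh1a1, an enzyme of retinoic acid synthesis, gave 0.32 (SE 0.12, adjusted p = 0.170), and the retinoic acid carrier Crabp1 gave 0.08 (SE 0.19, adjusted p = 0.873).

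None of 13 tested coregulators and receptor chaperones (40 listed, 14 with a probe set) passed limma, against 4.77% of all genes. Of the 13, 4 had an unadjusted p under 0.05, against 20.8% of all tested probe sets, and the median was -0.11. With so few genes, these counts do not set the list apart from the table as a whole. The nearest were the cochaperone St13 (-0.41, SE 0.10, adjusted p = 0.0600) and Hsp90ab1, the chaperone that holds steroid receptors ready for ligand (-0.32, SE 0.09, adjusted p = 0.0837). A dimmer St13 probe set, rc_AI171166_at, gave -0.02 with overlapping groups (SE 0.16, adjusted p = 0.964). The dimmest Hsp90ab1 probe set, rc_AI008074_s_at, fell (-0.46, SE 0.10, adjusted p = 0.0413). Its probe sets rc_AI236795_s_at (-0.21, SE 0.12, adjusted p = 0.364) and rc_AI007820_s_at (-0.28, SE 0.09, adjusted p = 0.133) did not pass.

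Genes known to respond to these receptors were followed as a view downstream of them. They answer to many signals, so a change in them does not name the receptor. Their lists are not split by the direction in which a ligand moves a gene. Counts of higher and lower genes and signed medians therefore give no net direction of response to a ligand. The lists of responsive genes were also drawn up with earlier results of these data known, so their shares called are descriptive only. Of 26 tested thyroid hormone responsive genes of muscle (37 listed, 28 with a probe set), 5 rose, 0 fell and 21 did not pass, 19.2% called against 4.77% of all genes (2.54% higher, 2.23% lower), with a median of 0.08. Ucp3, a mitochondrial uncoupling protein, read 353.8 and 396.5 in the unloaded pools, against 158.7 and 141.2 in the control pools, clear of each other (1.27, SE 0.12, adjusted p = 8.6e-04). Atp2a1, the fast-fibre calcium pump, read 3810 and 4026 in the unloaded pools, against 2549 and 2191 in the control pools, also apart (0.73, SE 0.10, adjusted p = 0.00684). The sodium pump subunit Atp1b1 (0.61), the type 2A myosin Myh2 (0.63) and Cpt1a, which admits fatty acids to mitochondria (0.62), rose by less, with adjusted p from 0.00722 to 0.0456. Hk2 (-0.59, SE 0.14, adjusted p = 0.0503) and Klf9 (0.39, SE 0.09, adjusted p = 0.0508) narrowly missed the threshold on their brightest probe sets. Their dimmer probe sets were further from it. M68971_at of Hk2 gave -0.05 (SE 0.11, adjusted p = 0.867) and D12769_at of Klf9 gave 0.17 (SE 0.12, adjusted p = 0.46). With 1 array left out, the count of 5 fell to 1 (unloaded pool 1 left out), 2 (unloaded pool 2), 3 (control pool 1) and 1 (control pool 2).

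Of 22 tested glucocorticoid responsive genes of muscle (44 listed, 30 with a probe set), 3 rose, 6 fell and 13 did not pass, 40.9% called against the same 4.77%, with a median of -0.11. Glul, the glutamine synthetase that glucocorticoids induce in muscle, read 1340 and 1433 in the unloaded pools, against 2259 and 2213 in the control pools (-0.69, SE 0.09, adjusted p = 0.00455). All 4 of its probe sets had the unloaded pools below the control pools, and 3 of them passed. Trim63, a ubiquitin ligase of muscle atrophy, read 528.7 and 579.5 in the unloaded pools, against 911.0 and 769.2 in the control pools (-0.59, SE 0.11, adjusted p = 0.0254). The phosphatase Dusp1 (-0.995), the insulin receptor adaptors Irs1 (-0.92) and Irs2 (-0.99) and heme oxygenase Hmox1 (-0.81) fell as well, with adjusted p from 0.00142 to 0.0272. Gadd45a (0.87), Cited2 (0.64) and the kinase Pdk4 (0.65) rose, with adjusted p from 0.00438 to 0.0470. Odc1 gave -0.53 on its brightest probe set (SE 0.12, adjusted p = 0.0503), while its dimmer probe set J04791_s_at fell (-0.81, SE 0.18, adjusted p = 0.039). Sgk1, a kinase that glucocorticoids induce, gave -0.08 (SE 0.17, adjusted p = 0.857). Fkbp5, Tsc22d3 and Per1, other genes that glucocorticoids induce, had no probe set with a single symbol. The count of 9 fell to 3 (unloaded pool 1 left out), 2 (unloaded pool 2), 3 (control pool 1) and 1 (control pool 2), and to 4 with the pool number as a block.

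Retinoid and vitamin D responsive genes were few on this array. Of 34 listed, 18 had a probe set and 10 were tested, with 2 higher, 1 lower and 7 that did not pass, 30% called against 4.77% of all genes, and a median of -0.11. Ucp3 and Pdk4, which stand in the lists above too, were higher, and the angiogenic factor Vegfa fell (-0.63, SE 0.10, adjusted p = 0.0119). Egr1 gave -0.66 (SE 0.24, adjusted p = 0.170) and Igfbp3 0.37 (SE 0.20, adjusted p = 0.338). The count of 3 was 1 without unloaded pool 1, unloaded pool 2 or control pool 2.

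**Figure D4:**
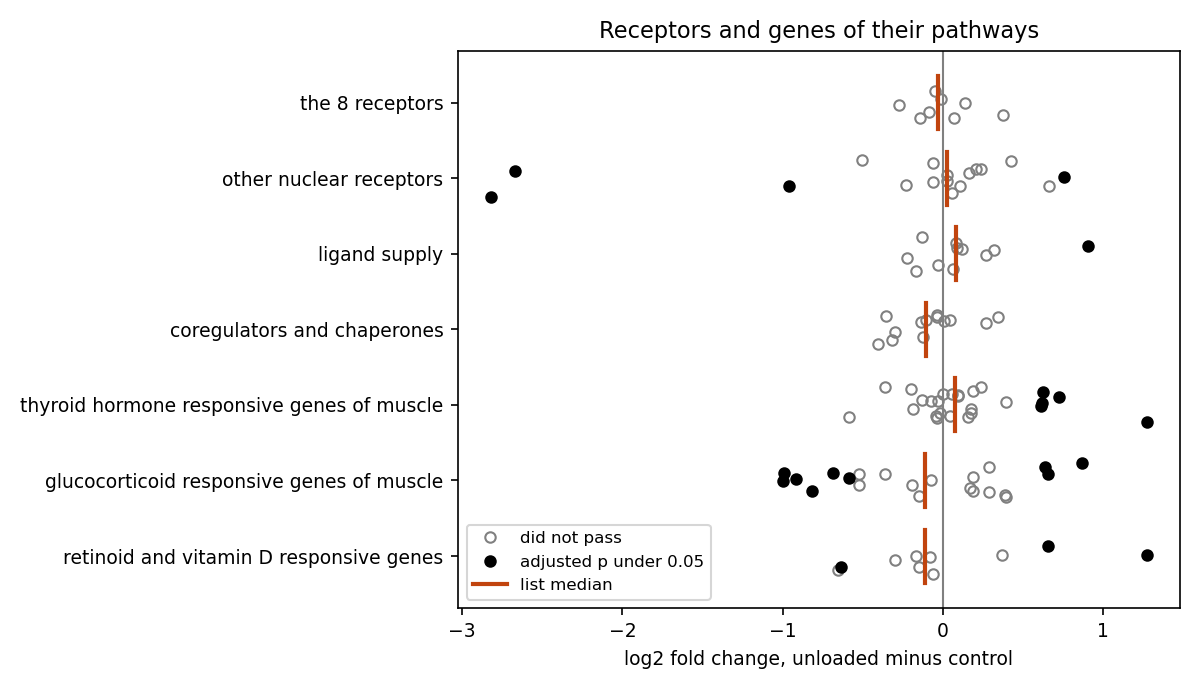
Log2 fold change, unloaded minus control, of each tested gene by its brightest probe set, for the 8 receptors and 6 lists of their pathways, with filled points for genes at an adjusted p under 0.05 and vertical bars at list medians. The 8 receptors hold no filled point, while the glucocorticoid list has 3 to the right and 6 to the left of 0.

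The DNA letters these receptors read were looked for in the promoters of the receptors and of the responsive genes that passed. Thyroid hormone, retinoid and vitamin D receptors bind pairs of the half-site AGGTCA, and glucocorticoid and mineralocorticoid receptors bind pairs of AGAACA. Both were searched on both strands in RefSeq windows of assembly GRCr8, from 250 bases before to 50 after an annotated start. Only exact matches of a single half-site were sought, so pairs and half-sites with a mismatch were not looked for. Of all 33469 windows, 16.2% held AGGTCA and 20.7% held AGAACA. The 9 windows of 7 of the 8 receptors (Nr3c2 had none) held neither. Among thyroid hormone responsive genes that passed and had a window, 2 of 4 held AGGTCA (Ucp3 and Atp2a1) and 0 of 4 held AGAACA. Among glucocorticoid responsive ones, 1 of 7 held AGAACA (Trim63) and 1 of 7 held AGGTCA (Gadd45a). Among retinoid and vitamin D responsive ones, 2 of 3 held AGGTCA (Ucp3 and Vegfa) and 1 of 3 held AGAACA (Vegfa). Each half-site thus also stood in windows of genes listed for other receptors. The windows of Ucp3, Atp2a1 and Trim63 are printed as examples of how the half-sites lie in a promoter, 5′ to 3′ on the gene's strand with the matched letters in capitals. No printed window held the other half-site. A match is a description of the letters and not evidence of binding.
Ucp3, GRCr8 chr1:164227660-164227959, plus strand, AGGTCA in capitals: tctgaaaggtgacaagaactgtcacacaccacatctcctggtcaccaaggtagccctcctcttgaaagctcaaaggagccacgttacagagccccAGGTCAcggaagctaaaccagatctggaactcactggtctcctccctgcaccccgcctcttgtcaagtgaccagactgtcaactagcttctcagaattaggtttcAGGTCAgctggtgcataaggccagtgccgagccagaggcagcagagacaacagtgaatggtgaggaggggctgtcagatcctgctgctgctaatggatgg
Atp2a1, GRCr8 chr1:190475361-190475660, minus strand, AGGTCA on the opposite strand, so shown here as its reverse complement in capitals: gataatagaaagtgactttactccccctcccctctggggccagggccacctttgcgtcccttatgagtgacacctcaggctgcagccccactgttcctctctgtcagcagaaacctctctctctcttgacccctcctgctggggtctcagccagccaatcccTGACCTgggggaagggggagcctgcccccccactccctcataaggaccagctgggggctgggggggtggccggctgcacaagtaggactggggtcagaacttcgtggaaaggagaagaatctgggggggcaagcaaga
Trim63, GRCr8 chr5:151816986-151817285, plus strand, AGAACA on the opposite strand, so shown here as its reverse complement in capitals: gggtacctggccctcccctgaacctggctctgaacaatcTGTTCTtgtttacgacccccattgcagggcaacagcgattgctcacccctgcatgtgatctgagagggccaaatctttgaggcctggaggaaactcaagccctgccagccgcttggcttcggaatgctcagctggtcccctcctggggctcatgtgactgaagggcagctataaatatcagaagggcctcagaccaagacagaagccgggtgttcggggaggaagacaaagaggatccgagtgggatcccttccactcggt
The matches in Ucp3 began 155 and 50 bases before the annotated start, that in Atp2a1 88 bases before it and that in Trim63 211 bases before it.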

How the data were processed

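The authors deposited 1 table of MAS5 signal intensity values per probe set on a linear scale, made with MAS5 per the submitters' processing notes (its version and settings are not stated there). Equal trimmed means show a common scale, which assumes alike total signal in both groups. Detection calls were not used here.

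Of 8799 probe sets, 59 Affymetrix controls were left out. Symbols came from the platform annotation, updated by gene ID to RefSeq (6985 of 7006 single-symbol probe sets matched). The 308 with several symbols and 1426 with none were named nowhere. Signals were taken as log2(signal + 9), 9 being the 25th percentile. Probe sets with a mean signal at or above the 40th percentile (21.1) were tested, 5248 in all. The group difference was fitted in limma 3.58.1 under R 4.3.3 (lmFit, eBayes with a mean-variance trend, 5.88 prior and 2 residual degrees of freedom), adjusted by Benjamini-Hochberg over all tested probe sets, with an adjusted p of 0.05 as the threshold. Fold changes on this scale understate those of dim probe sets, and the number of arrays limits the precision. Steps were tested on simulated data. Plots used matplotlib 3.10.9 (Python 3.11.15).

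In lists a gene is its brightest tested single-symbol probe set. There were 15 genes in more than 1 pathway list. Named were all receptor probe sets, list genes that passed (up to 8 by p) with the next 2 by p, and a fixed set (Rarb, Rarg, Rxrg, Nr1d1, Fkbp5, Tsc22d3, Glul, Per1, Sgk1, Dio2, Hsd11b1, Crabp1, Atp2a1 and Ucp3, of which Rarg had no single-symbol probe set, and 1 more gene that is not reported here). The receptors and lists were chosen with earlier results of these data known. Alternatives were quantile and median scaling, 2 offsets, 2 filters, no trend, a pool block, an adjusted p of 0.10, leaving out each array and averaging the probe sets of a gene.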

Additional observations from a re-analysis of the deposited data

How the results depend on the processing

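No receptor probe set passed in any of 13 alternatives. With the filter at the 60th percentile only 4 of the 11 were bright enough to be tested. Of the receptor values, Nr3c2 M36074_at turned to 0.0135 with median scaling. Leaving out 1 array gave -0.193 to 0.0202 for Thrb, -0.163 to 0.0620 for Nr3c1 M14053_at, -0.0870 to 0.0645 for Nr3c2 M36074_at and -0.0978 to 0.368 for Rara U15211_at, all crossing 0. It gave -0.171 to 0.0460 for Rxrg AF016387_g_at, -0.221 to 0.0677 for Sgk1, -0.0349 to 0.213 for Hsd11b1 and -0.0214 to 0.179 for Crabp1. Over all probe sets 280 passed, against 90 without a filter on dim probe sets, 113 without a mean-variance trend, 168 with the pool number as a replicate block, 459 at an adjusted p under 0.10 and 67 to 84 with 1 array left out. Without a filter, calls were 1 for other nuclear receptors, 2 for thyroid hormone and 4 for glucocorticoid responsive genes. Without a trend they were 2, 1 and 2, and 1 for retinoid and vitamin D responsive genes. Quantile normalization gave 3 for thyroid hormone responsive genes and 1 for coregulators and chaperones, which had 1 with a filter at the 60th percentile and 2 at an adjusted p under 0.10. With 1 array left out, calls ranged from 2 to 3 for other nuclear receptors, 0 to 1 for ligand supply, 1 to 3 for thyroid hormone and for glucocorticoid responsive genes, and 1 to 2 for retinoid and vitamin D responsive genes. Among the named pathway genes, 11 calls were lost without a filter, 14 without a trend, 4 with quantile normalization, 7 with the replicate block and 11 to 15 with 1 array left out. Leaving out an array also leaves 1 residual degree of freedom and a group with a lone pool. The labels do not say whether pools of the same number share more than that number. Differences between pools 1 and 2 correlated at -0.0435 between the groups, and 1 correlation over all tested probe sets cannot settle it. The replicate block gave 4 calls among glucocorticoid responsive genes and moved no other list's count by over 1.5 times. Among retinoid and vitamin D responsive genes it gave 1 higher and 2 lower, since Egr1 passed (-0.66, adjusted p = 0.0416) and Pdk4 did not (adjusted p = 0.0907).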
